A study of Mus musculus with 51 samples.

Results

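Interferon-stimulated genes are the genes that cells switch on when an interferon binds its receptor. A set of 41 such mouse genes, listed by symbol, was followed across all 8 groups of a lung array series, and 40 of them were measured, each by 1 probe set among the 22206 on the array. Ifi44 was not analysed here. The 40 comprise 33 targets of type I interferon, 4 GTPase genes that respond above all to interferon gamma (Gbp2, Gbp3, Igtp and Irgm1), and 3 genes of antigen processing (Tap1, Psmb8 and Psmb9), which respond to both. The list was drawn up by gene name, with earlier results of these data known.

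The series measured total RNA of whole lung from male mice aged 6 to 8 weeks, lavaged and perfused, 48 h after the last exposure of the airways. Methylene diphenyl diisocyanate (MDI) is a reactive chemical used to make polyurethane and a cause of occupational asthma. All groups, controls included, had 2 skin exposures to 1% MDI in acetone, so every comparison is between sensitized mice. On days 15, 16, 19 and 20 the airways then received either products of MDI reacted with glutathione (MDI groups) or a control solution in which MDI and glutathione had been reacted apart (control groups). BALB/c mice gave 3 control and 3 MDI arrays, and C57BL/6 mice gave 6 control and 13 MDI arrays. C57BL/6 mice given crofelemer, a plant-derived inhibitor of chloride channels, at 4 mg/kg into the nose 4 h before each airway exposure gave 5 control and 3 MDI arrays. Mice of the line B6.129S2-Ighmtm1Cgn/J, called B-cell deficient because their immunoglobulin mu heavy chain gene is disrupted so that mature B cells do not form, gave 9 control and 7 MDI arrays. The remaining 2 of the 51 arrays carry labels that contradict each other on crofelemer and entered no comparison. The labels do not say whether arrays of a group came from separate animals, so p-values measure the spread between these arrays.

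Values are the deposited log2 signals, and differences are log2 fold changes ± SE, so that 1 unit is a 2-fold change of the deposited signal. Array means lay at 7.372 to 7.4 in BALB/c mice, 7.48 to 7.515 in C57BL/6 mice without crofelemer, 7.435 to 7.476 with crofelemer and 8.024 to 8.072 in B-cell deficient mice. These sets look separately normalized, although separate processing was not shown, so levels of different sets are given side by side with no test, except that C57BL/6 mice with and without crofelemer are compared across the small gap between their sets. Lung epithelial markers were high in every group, with a log2 summed level of 20.39 to 21.01. The summed level of 6 B-cell markers was 7.58 to 8.29 in B-cell deficient mice and 10.14 to 12.19 in C57BL/6 mice without crofelemer. Among the 6 C57BL/6 controls, replicate 3 held the highest value in 30 of the 40 members. Of the B-cell deficient controls, 4 had a narrower spread over probe sets (SD 2.854 to 2.956) than the rest. One C57BL/6 MDI array (replicate 14) bears "control" in 1 of its labels and MDI in the others. Without it 17 members were called in C57BL/6 mice, as with it, but Isg15 lost its call and Ifi35 gained one.

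Type I interferons signal through a receptor whose transcription factors, STAT2 and IRF9 among them, act at a DNA element called ISRE. Interferon gamma signals through a receptor of its own, and many of its targets carry an element called GAS. In the lung, type I targets arm cells against viruses, and interferon gamma targets and the antigen-processing genes are induced where T cells and natural killer cells release interferon gamma.

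The promoters of the members were searched for the cores of both elements, and in these windows the cores did not split by class as in this scheme. The RefSeq promoter table (build GRCm38.p6, 250 bases before to 50 bases after each start) had a window for 31 of the 41 genes. The ISRE core GAAANNGAAA, searched on both strands, lay in 16 of the 31 (51.6%) against 3.99% of the 27025 genes in the table. The GAS core TTCNNNGAA, which reads alike on both strands, lay in 8 of 31 (25.8%) against 9.55%. By class, an ISRE core was found in 12 of 24 type I targets, 4 of 4 interferon gamma targets and 0 of 3 antigen-processing genes. A GAS core lay in 6 of the 24 type I targets and 1 each of the other classes, and 1 of the 8 GAS matches overlapped an ISRE match. These are letter matches, not measured binding. The stretches below are shown as examples for 7 type I targets and for all 4 interferon gamma targets. Each runs 5′ to 3′ on the gene's strand and ends before the start site, and capitals mark the ISRE core, which reads TTTCNNTTTC where it lies on the opposite strand.
Isg15, chr4:156200850-156200921, minus strand: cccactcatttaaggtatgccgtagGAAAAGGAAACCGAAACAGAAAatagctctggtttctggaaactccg
Ifit1, chr19:34640760-34640838, plus strand: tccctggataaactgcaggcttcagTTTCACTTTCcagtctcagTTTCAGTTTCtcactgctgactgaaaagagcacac
Ifit3, chr19:34583348-34583441, plus strand: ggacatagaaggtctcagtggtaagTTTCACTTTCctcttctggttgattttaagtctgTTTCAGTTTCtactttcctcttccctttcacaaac
Rsad2, chr12:26456538-26456597, minus strand: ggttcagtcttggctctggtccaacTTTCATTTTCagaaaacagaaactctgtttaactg
Oas1a, chr5:120907526-120907570, minus strand: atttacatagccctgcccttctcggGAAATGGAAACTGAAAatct
Oas1g, chr5:120887614-120887656, minus strand: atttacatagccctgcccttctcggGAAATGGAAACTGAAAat
Trim30a, chr7:104465195-104465254, minus strand: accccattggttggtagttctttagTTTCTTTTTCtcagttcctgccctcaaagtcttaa
Gbp2, chr3:142620579-142620638, plus strand: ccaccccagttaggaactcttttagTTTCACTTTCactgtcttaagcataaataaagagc
Gbp3, chr3:142559974-142560039, plus strand: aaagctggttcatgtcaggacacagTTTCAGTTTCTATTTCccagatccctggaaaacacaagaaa
Igtp, chr11:58199497-58199555, plus strand: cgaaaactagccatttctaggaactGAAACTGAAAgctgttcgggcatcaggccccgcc
Irgm1, chr11:48871421-48871475, minus strand: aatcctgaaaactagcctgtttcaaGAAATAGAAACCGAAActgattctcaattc

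Tap1 and Psmb9 are transcribed away from each other, and the 225 bases between their starts, given on the plus strand, hold neither core. They are shown because both genes, with their neighbour Psmb8, rose in B-cell deficient mice and because Psmb9 was lower with crofelemer while Tap1 was not called.
Tap1 and Psmb9, chr17:34187331-34187555, plus strand: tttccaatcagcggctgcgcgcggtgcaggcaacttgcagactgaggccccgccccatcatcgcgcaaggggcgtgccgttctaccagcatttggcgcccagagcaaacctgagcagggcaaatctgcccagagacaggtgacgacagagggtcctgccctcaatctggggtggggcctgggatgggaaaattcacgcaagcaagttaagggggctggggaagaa

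The members are also neighbours on the chromosomes, with 17 of the 40 in 8 clusters whose gaps are under 50 kb. The clusters are Rsad2 with Cmpk2, Dtx3l with Parp9, Psmb9 with Tap1 and Psmb8, Ifit2 with Ifit3, Gbp3 with Gbp2, Oasl2 with Oasl1, Oas2 with Oas3, and Oas1g with Oas1a. Oas1a and Oas1g, the Ifit, Gbp2 and Gbp3 genes, Ifi27l2a and Trim30a have close paralogs, and whether their probe sets tell these apart was not tested. RefSeq lists Mx1 and Mx2 as transcribed pseudogenes.

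In C57BL/6 mice the MDI groups address how the sensitized lung responds to the airway exposure. Interferon targets were lower: 17 of the 40 members fell and none rose (limma, adjusted p under 0.05 over all probe sets), while 9.23% of all probe sets fell and 5.3% rose (14.5% in either direction). The median member difference was -0.35 and 36 of 40 values lay below 0, beside a median of 0.01 over all probe sets. Among the 11103 probe sets above the median level, which hold 28 of the members and are called the brighter probe sets below, 15.5% fell and the median was -0.07. The members that fell were 15 of 33 type I targets and 2 of 4 interferon gamma targets. None of the 3 antigen-processing genes passed the test. In bulk lung, fewer cells of a type and less RNA per cell cannot be told apart.

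Of the regulators, Irf7 encodes the transcription factor that drives the interferon alpha genes and amplifies the response. Its level (probe set TC0700004530.mm.2) was 6.79, 7.9 and 9.72 (lowest, median and highest) in the 6 controls and 5.17, 6.49 and 7.3 in the 13 MDI arrays. The groups overlapped, and 5 of the 6 controls lay above every MDI array. Irf7 fell by 1.65 ± 0.29 (3.15-fold, adjusted p = 8.03e-05). Usp18, which takes ISG15 off proteins and restrains the type I receptor, fell by 0.67 ± 0.14 (adjusted p = 0.000451). Irf9, a DNA-binding factor of type I signalling, fell by 0.40 ± 0.13 (adjusted p = 0.0383). Stat2, which acts together with IRF9, differed by -0.10 ± 0.15 and was not called.

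The effector genes gave the most calls. Among the 14 antiviral effectors, 7 fell: Rsad2, Cmpk2, Ifit3, Isg20, Ifit2, Rtp4 and Xaf1. Cmpk2, a mitochondrial nucleotide kinase gene next to Rsad2, was measured at 8.89, 8.59, 9.61, 8.85, 8.70 and 8.61 in the controls and at 7.72 to 8.43 in the MDI arrays. It was the only member whose groups did not overlap, which held downward for 0.617% of all probe sets. Cmpk2 fell by 0.74 ± 0.12 (adjusted p = 1.67e-05). Rsad2, whose enzyme viperin makes a chain-terminating nucleotide that stops viral polymerases, fell by 0.93 ± 0.17 (adjusted p = 0.000148). Isg20, an RNA exonuclease, lay at 11.42, 11.72 and 12.07 in controls and at 9.95, 11.19 and 11.44 with MDI, with a slight overlap, and fell by 0.66 ± 0.15 (adjusted p = 0.00214). Ifit3 and Ifit2, of the family that binds viral RNA, fell by 0.70 ± 0.18 and 0.59 ± 0.16. Mx1 had the smallest difference of the effectors, 0.22 ± 0.19, and was not called.

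The OAS family makes the oligoadenylates that activate RNase L. Within it, 3 of 6 fell: Oas2, Oasl2 and Oas3. Oas2 was at 5.63, 6.04 and 7.97 in controls and at 4.46, 5.09 and 5.87 with MDI, and fell by 1.15 ± 0.21 (2.22-fold, adjusted p = 9e-05). Oas1a and Oas1g, whose printed promoter stretches begin with the same bases, differed by -0.03 ± 0.14 and 0.20 ± 0.17 and were not called. Of the 4 sensors, Ifih1 (MDA5, a sensor of double-stranded RNA) fell by 0.40 ± 0.13, and Eif2ak2, the kinase that halts translation, differed by 0.03 ± 0.11. Of Isg15 and the PARP group, Isg15 fell by 0.40 ± 0.14 (adjusted p = 0.0439), and Herc6, Parp9, Dtx3l and Parp14 were not called.

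Interferon gamma targets were divided. Igtp, of a GTPase family that defends cells against intracellular parasites, fell by 0.82 ± 0.20 (adjusted p = 0.0028). Gbp2, a guanylate-binding GTPase, fell by 0.52 ± 0.17 (adjusted p = 0.0383), while Gbp3 (-0.35 ± 0.15) and Irgm1 (-0.17 ± 0.13) were not called. Psmb8, a catalytic subunit of the immunoproteasome, lay at 10.52, 10.80 and 11.00 in controls and 10.27, 10.99 and 11.30 with MDI, and differed by 0.12 ± 0.13. Tap1, which carries peptides to class I molecules, differed by -0.19 ± 0.19 and Psmb9 by -0.14 ± 0.15.

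C57BL/6 control replicate 3 carried part of this difference. Its median type I member lay 0.60 above the mean of the controls, while the other 5 controls lay between -0.24 and 0.03. Without it, 9 members were called in place of 17: Irf7, Usp18, Oas2, Ifit2, Ifit3, Rsad2, Cmpk2, Isg20 and Igtp, the same 9 that were called with any single array left out and under every other setting that tested them. Irf7 then fell by 1.31 (adjusted p = 0.00123), Oas2 by 0.83 (adjusted p = 0.00119), Cmpk2 by 0.60 (adjusted p = 0.000281) and Igtp by 0.67 (adjusted p = 0.0217). The array had the highest log2 summed level of the 6 patrolling monocyte markers among the controls (16.53, range 16.14 to 16.53), a sum set almost entirely by Ace (16.08 to 16.50). It had the lowest of the 8 plasmacytoid dendritic cell markers (16.28, range 16.28 to 16.50), set almost entirely by Tcf4 (16.26 to 16.48). Both margins were small, with the next control at 16.5 (replicate 6) and 16.32 (replicate 5). Its summed levels for natural killer cells and endothelium lay inside the range of the other controls. Within the block of consecutive submissions that holds 4 controls and 12 MDI arrays, 11 members were called.

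Other genes of the pathway, from lists that hold no member, were mixed. Of 22 other type I targets 7 fell and none rose, among them Tor3a (-0.66 ± 0.15) and Slfn1 (-0.78 ± 0.26). Of 15 other interferon gamma targets 5 fell and 2 rose: Wars, the tryptophan tRNA ligase gene, fell by 0.79 ± 0.15, while the T-cell attractant Cxcl9 rose by 1.21 ± 0.26 and the class II transactivator Ciita by 0.70 ± 0.18. Of 10 other class I genes, 2 fell and none rose. Of 18 signalling genes 2 rose and 2 fell, with Tmem173, the adaptor STING, higher by 0.81 ± 0.19. Markers of cell types moved in the same arrays. Endothelial markers fell in 5 of 6 and patrolling monocyte markers in 4 of 6. Eosinophil markers rose in 4 of 6, T-cell markers in 4 of 7 and interstitial macrophage markers in 3 of 5. Natural killer cell markers fell in 2 of 6, and 1 of 8 plasmacytoid dendritic cell markers fell. Of the neutrophil markers 3 of 10 fell (Csf3r by 1.65 ± 0.40) and 1 rose (Retnlg by 1.27 ± 0.40), of the classical monocyte markers 2 of 4 rose and 1 fell, and of the alveolar macrophage markers 1 of 7 rose. The part of these cells in the members' values was not tested.

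**Figure D1:**
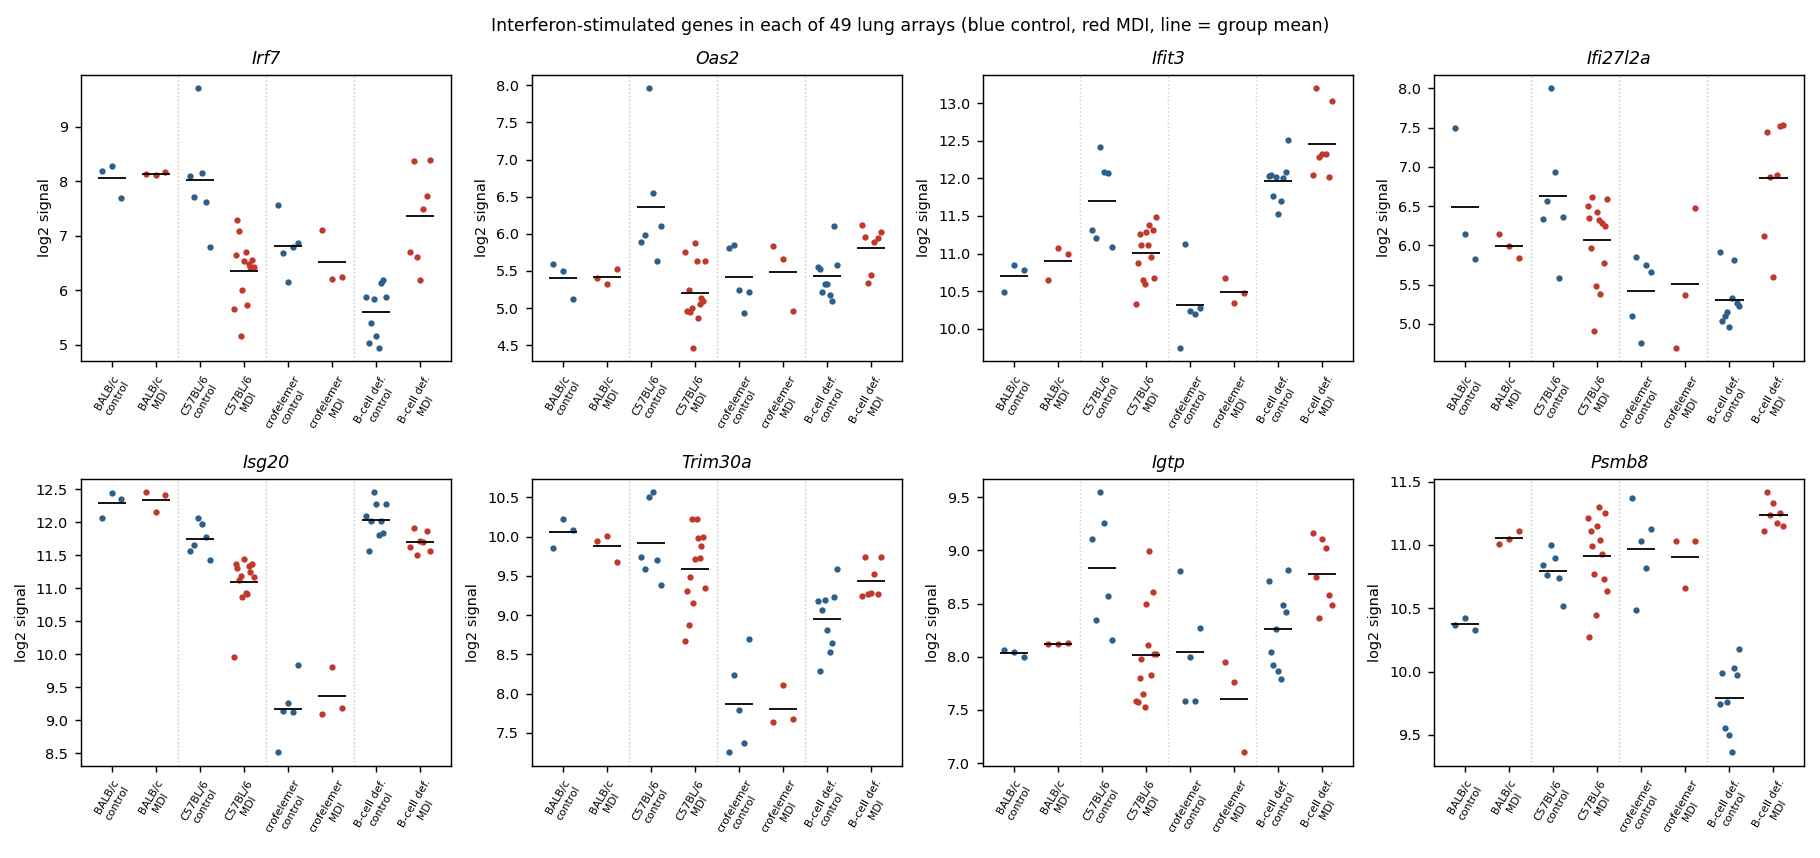
Deposited log2 level of 8 members (Irf7, Oas2, Ifit3, Ifi27l2a, Isg20, Trim30a, Igtp and Psmb8) in each array of the 8 groups. Points are arrays and lines are group means. Irf7 is lower with MDI in C57BL/6 mice (means 8.02 and 6.36) and higher with MDI in B-cell deficient mice (5.61 and 7.36), and Isg20 is lower in both crofelemer groups (9.17 and 9.36) than in the C57BL/6 groups without it (11.75 and 11.09).

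In B-cell deficient mice the same exposure went with higher levels. Of the 40 members 20 rose and 1 fell, while 16.2% of all probe sets rose and 20.7% fell (36.9% in either direction). The median member difference was 0.40 and 34 of 40 values lay above 0, beside a median of -0.06 over all probe sets. Among the brighter probe sets 25.2% rose and 13% fell, with a median of 0.07. All 3 antigen-processing genes rose, as did 15 of 33 type I targets and 2 of 4 interferon gamma targets. In 8 members (Dhx58, Oas1a, Mx1, Xaf1, Parp9, Tap1, Psmb8 and Psmb9) every MDI array lay above every control, which held upward for 4.67% of all probe sets.

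The antigen-processing genes had the smallest adjusted p of the members. Psmb8 was at 9.36, 9.76 and 10.18 (lowest, median and highest) in the 9 controls and at 11.11, 11.24 and 11.42 in the 7 MDI arrays. It rose by 1.45 ± 0.13 (2.74-fold, adjusted p = 1.76e-12). Tap1 lay at 10.08, 10.74 and 10.91 in controls and at 11.22, 11.71 and 12.23 with MDI, and rose by 1.20 ± 0.19 (adjusted p = 3.97e-06). Psmb9 lay at 8.03, 8.81 and 8.98 and at 9.29, 9.65 and 9.85, and rose by 0.98 ± 0.15 (adjusted p = 1.98e-06). The gaps between the groups exceeded the range within the MDI group for Psmb8 alone of these 3 genes.

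Among the regulators Irf7, Stat2 and Usp18 rose and Irf9 (0.23 ± 0.14) was not called. Irf7 lay at 4.94, 5.84 and 6.19 in controls and at 6.19, 7.49 and 8.39 with MDI, so that the lowest MDI array equalled the highest control. Irf7 rose by 1.75 ± 0.30 (3.36-fold, adjusted p = 1.18e-05). Stat2 rose by 0.59 ± 0.15 (adjusted p = 0.00215) and Usp18 by 0.42 ± 0.14 (adjusted p = 0.0167). Of the 4 sensors, Dhx58 (LGP2, a partner of MDA5) was at 5.40, 5.98 and 6.33 in controls and 6.40, 6.71 and 7.05 with MDI. It rose by 0.70 ± 0.14 (adjusted p = 0.000128), and Ifih1 (-0.20 ± 0.13), Zbp1 and Eif2ak2 were not called.

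Of the OAS family 2 of 6 rose, the paralogs Oas1a (0.70 ± 0.14, adjusted p = 8.59e-05) and Oas1g (0.54 ± 0.17, adjusted p = 0.0103). Oas2 lay at 5.09, 5.32 and 6.10 in controls and at 5.34, 5.94 and 6.12 with MDI, and its difference of 0.38 ± 0.21 was not called. Of the 14 effectors 6 rose: Mx1, Ifit3, Rtp4, Xaf1, Ifi27l2a and Ifi35. Ifi27l2a, a small mitochondrial protein gene, lay at 4.96, 5.23 and 5.92 in controls and at 5.60, 6.89 and 7.53 with MDI. It rose by 1.54 ± 0.28 (2.91-fold, adjusted p = 3.38e-05). Mx1, of the dynamin-like GTPases, rose by 1.09 ± 0.19 (adjusted p = 1.59e-05) and Xaf1, which favours cell death, by 0.63 ± 0.13 (adjusted p = 0.000117). Ifit2 was the 1 member that fell, by 0.46 ± 0.16 (adjusted p = 0.0225), with 8.81, 9.45 and 9.62 in controls and 8.48, 8.79 and 9.41 with MDI. Its neighbour Ifit3 rose by 0.50 ± 0.19 (adjusted p = 0.0312). Cmpk2 and Rsad2 differed by 0.00 ± 0.12 and 0.14 ± 0.18.

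Parp9 and Dtx3l, whose proteins form a complex that modifies histones, rose by 0.61 ± 0.14 and 0.43 ± 0.13. Herc6, the ISG15 ligase of the mouse, rose by 0.47 ± 0.15, and Isg15 itself differed by 0.20 ± 0.14 and was not called. Igtp rose by 0.52 ± 0.20 (adjusted p = 0.0353) and Irgm1, a regulatory GTPase of the same family, by 0.38 ± 0.13 (adjusted p = 0.0237). Gbp2 (0.11 ± 0.18) and Gbp3 (0.35 ± 0.16) were not called.

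All 9 controls of this genotype, but only 3 of the 7 MDI arrays, belong to one block of consecutive submissions. Within it 15 members rose and none fell, and with the block as a term in the model 14 rose. Inside the block Psmb8 rose by 1.40 (adjusted p = 1.07e-05), Tap1 by 1.45 (adjusted p = 2.25e-05), Irf7 by 2.27 (adjusted p = 7.21e-06) and Ifi27l2a by 2.00 (adjusted p = 2.05e-06), while Usp18, Oas1g, Ifit2, Ifit3, Herc6, Igtp and Irgm1 were no longer called and Oasl2 was. Without the 4 narrow controls 10 members rose and 1 fell, and after quantile normalization 17 rose and 3 fell. The members called with any single array left out and under every other setting that tested them were Irf7, Dhx58, Oas1a, Mx1, Xaf1, Ifi27l2a, Tap1, Psmb8 and Psmb9.

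The wider pathway moved as follows. Of 10 other class I genes 7 rose and none fell, among them H2-D1 (1.51 ± 0.16), H2-K1 (1.03 ± 0.12), H2-T23 (1.05 ± 0.15) and the proteasome activator Psme2 (0.55 ± 0.11). Of 22 other type I targets 13 rose and 1 fell, with Slfn2 at 2.00 ± 0.21 and Ms4a4c at 1.81 ± 0.23. Of 15 other interferon gamma targets 6 rose, Ciita by 1.19 ± 0.19 and Cxcl9 by 1.12 ± 0.27. Of 18 signalling genes 11 rose, including Tmem173 (1.15 ± 0.20), Jak2 (0.98 ± 0.15) and Irf8 (1.06 ± 0.21). Of 15 interferon and receptor genes 4 rose and 5 fell. The receptor chain gene Ifngr2 rose by 0.72 ± 0.10, and Ifnb1, at 5.24 to 6.42 in controls and 4.77 to 5.30 with MDI, fell by 0.69 ± 0.14. The signal of Ifnb1 was low, below the median of every array of this genotype (7.44 to 7.6). That of Ifna1 was higher, with a mean of 8.2 in controls and 7.54 with MDI. The means of Ifna2, Ifna4 and Ifne were also lower with MDI, and that of Ifnk was higher. Of all probe sets 20.7% fell, against 13% of the brighter ones, and whether signal level plays a part in these differences was not tested. Ifng lay at 5.61 to 6.44 in controls and 5.98 to 6.78 with MDI and was not called.

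Cell type markers moved in the same arrays. Those that rose were 6 of 6 for eosinophils, 6 of 7 for T cells, 5 of 7 for alveolar macrophages, 4 of 5 for interstitial macrophages and 3 of 4 for classical monocytes. Siglecf stands in both the eosinophil and the alveolar macrophage list. Plasmacytoid dendritic cell markers were mixed, with Spib higher (0.94 ± 0.17) and Tcf4 lower (-0.39 ± 0.15). Patrolling monocyte markers also went both ways. With MDI the mean of Itgal went from 9.2 to 10.29 and that of Nr4a1 from 9.62 to 8.35. Of the natural killer cell markers, Eomes had the largest step in its mean, from 5.62 to 6.67. Prf1 had the smallest, from 5.29 to 5.43. The summed level of the eosinophil markers lay at 10.69 to 12.03 in controls and 13.41 to 14.82 with MDI. The largest rise of the classical monocyte list was that of Chil3, at 15.49 to 16.86 and 18.04 to 18.35, while Ly6c2 (0.27 ± 0.13) was not called. The largest rise of the neutrophil list was that of Retnlg, at 11.35 to 14.34 and 16.23 to 17.18. Csf3r (0.44 ± 0.41) and Cxcr2 (0.38 ± 0.37) of that list were not called. Of the 10 neutrophil markers 2 rose, and endothelial markers fell in 4 of 6. The part of these cells in the members' values was not tested.

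**Figure D2:**
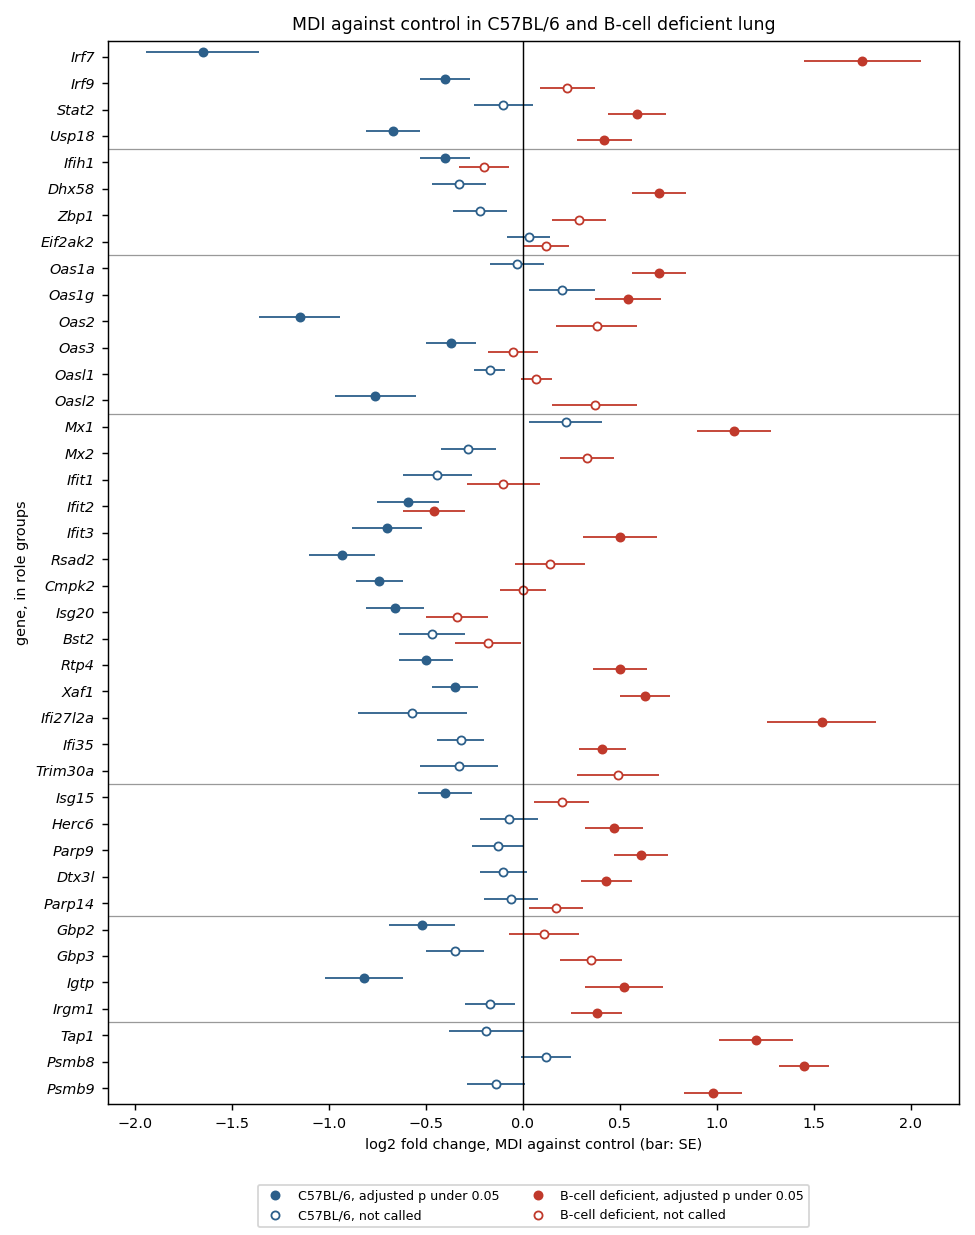
Difference of MDI from control (log2 fold change, points, with SE as bars) for the 40 members in C57BL/6 mice (blue) and B-cell deficient mice (red). Filled points passed an adjusted p of 0.05: 17 members in C57BL/6 mice, all lower, and 21 in B-cell deficient mice, 20 higher and 1 lower.

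Whether MDI acted differently in the 2 genotypes was tested directly as the difference between the effects. All 40 members had a more positive value in B-cell deficient mice. For 27 of them the difference passed the test, and for none in the other direction, beside 9.27% of probe sets higher and 11% lower (20.3% in either direction). Among the brighter probe sets 15.1% were higher and 2.89% lower. The median was 0.71 for the members, -0.01 over all probe sets and 0.17 among the brighter probe sets. A shift shared by all arrays of a set cancels in this difference, but a difference in scale between sets does not.

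The difference was largest for Irf7, at 3.40 ± 0.42 (adjusted p = 2.64e-06), which fell in one genotype and rose in the other. Igtp (1.34 ± 0.28, adjusted p = 0.00101) and Ifit3 (1.20 ± 0.26, adjusted p = 0.00153) also passed the test in opposite directions in the 2 genotypes, as did Usp18, Rtp4 and Xaf1. Within submission blocks the rises of Igtp, Ifit3 and Usp18 in B-cell deficient mice and the falls of Rtp4 and Xaf1 in C57BL/6 mice lost their calls. Oas2 (1.54 ± 0.30), Rsad2 (1.07 ± 0.25) and Cmpk2 (0.75 ± 0.17) fell in C57BL/6 mice and were not called in B-cell deficient mice. Tap1 (1.39 ± 0.27), Psmb8 (1.33 ± 0.18), Psmb9 (1.12 ± 0.21) and Ifi27l2a (2.11 ± 0.40) rose in B-cell deficient mice and were not called in C57BL/6 mice. By role the difference was called for 4 of 4 regulators, 1 of 4 sensors, 3 of 6 OAS genes, 10 of 14 effectors, 3 of 5 of Isg15 and the PARP group, 3 of 4 interferon gamma targets and 3 of 3 antigen-processing genes. Ifit1 (0.34 ± 0.26), Ifit2 (0.13 ± 0.23), Isg20 (0.32 ± 0.22) and Bst2 (0.29 ± 0.24) were not called.

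Without C57BL/6 control replicate 3 the difference was called for 20 members, Irf7 then at 3.06 (adjusted p = 9.14e-06). Without the 4 narrow B-cell deficient controls it was called for 14, and within submission blocks for 19. The 14 members called with any single array left out and under every setting that tested them were Irf7, Usp18, Dhx58, Oas2, Ifit3, Rsad2, Cmpk2, Rtp4, Xaf1, Ifi27l2a, Igtp, Tap1, Psmb8 and Psmb9. Natural killer cell markers (5 of 6), interstitial macrophage markers (4 of 5) and neutrophil markers (4 of 10) showed a called difference in the same direction. So did Ly6c2 (0.86 ± 0.18), Spib (1.23 ± 0.24), Krt79 (0.67 ± 0.24) and Pparg (0.85 ± 0.30). The other classical monocyte, plasmacytoid dendritic cell and alveolar macrophage markers were not called. The part of these cells in the members' values was not tested. By promoter, 9 of 16 members with an ISRE core and 10 of 14 without one were called.

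**Figure D3:**
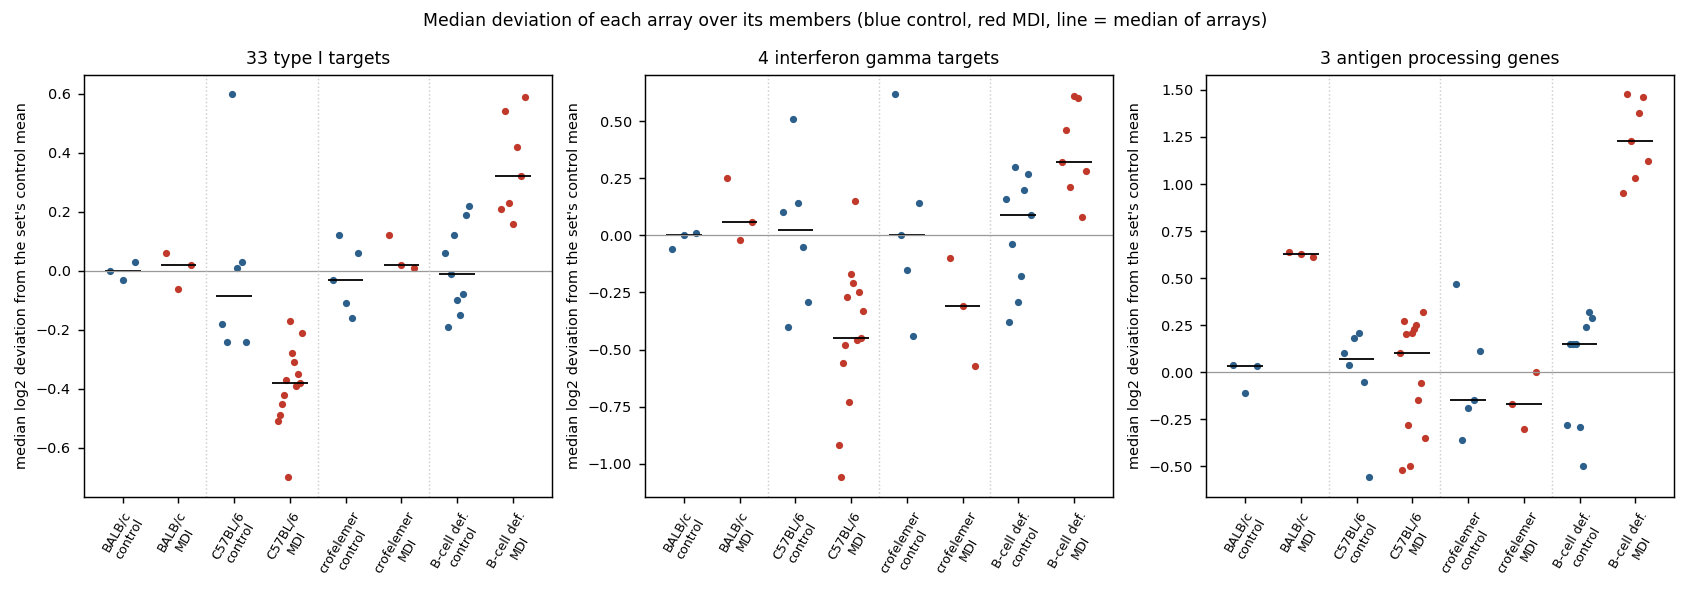
Median deviation of each array from its set's control mean (log2) over 33 type I targets, 4 interferon gamma targets and 3 antigen-processing genes. Points are arrays, and lines mark the median of a group's arrays. In B-cell deficient mice the antigen-processing median lies at 0.95 to 1.48 with MDI against -0.50 to 0.32 in controls, while in C57BL/6 mice the type I median lies at -0.70 to -0.17 with MDI against -0.24 to 0.60.

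In BALB/c mice no member was called in either direction by limma, where 0.302% of all probe sets were called (0.261% higher and 0.0405% lower). The median member difference was 0.06, and 2 members had an unadjusted p under 0.05, beside 5.62% of all probe sets. None of the 3 antigen-processing genes, which are neighbours on 1 chromosome, passed the test, though their groups did not overlap. Psmb8 was at 10.37, 10.42 and 10.33 in the 3 controls and at 11.01, 11.05 and 11.11 in the 3 MDI arrays, a difference of 0.68 ± 0.21 (adjusted p = 0.218). Tap1 was at 10.96, 10.81 and 10.99 and at 11.60, 11.55 and 11.43, a difference of 0.61 ± 0.31 (adjusted p = 0.925). Psmb9 was at 9.15, 8.70 and 8.97 and at 9.45, 9.30 and 9.55, a difference of 0.49 ± 0.25 (adjusted p = 0.886). All MDI arrays lay above all controls for these 3 genes and for Mx1, Irf9 and Igtp, 6 members in all, which held for 7.48% of probe sets. For 1 member, Eif2ak2, they lay below, which held for 6.83%. Mx1 was at 5.53, 6.59 and 6.12 in controls and at 7.20, 6.99 and 7.11 with MDI, a difference of 1.02 ± 0.31 (adjusted p = 0.216). Irf7 stayed between 7.70 and 8.29 in all 6 arrays.

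A model of the BALB/c arrays alone called Tap1 and Psmb8, and a model with array weights called Mx1 and Psmb8, all higher. Among the other pathway genes Cxcl9 rose by 3.33 ± 0.43 (adjusted p = 1.06e-06) and H2-D1 by 1.12 ± 0.26 (adjusted p = 0.0352), each the only called gene of its list. Of the interstitial macrophage markers 3 of 5 rose, C1qa by 2.18 ± 0.37, and 1 of 4 classical monocyte markers rose. Of the alveolar macrophage markers 1 of 7 rose (Krt79, 1.19 ± 0.28), and of the patrolling monocyte markers 1 of 6 fell (Nr4a1, -2.79 ± 0.52). Their part in the members' values was not tested. The difference between the effects in BALB/c and C57BL/6 mice was called for no member by limma (0.027% of all probe sets, 0.0135% in each direction), with 38 of 40 values above 0, a median of 0.41, and 15 members at an unadjusted p under 0.05 beside 7.82% of probe sets. The smallest p belonged to Usp18 (0.81 ± 0.26, adjusted p = 0.365) and Irf7 (1.74 ± 0.57, adjusted p = 0.366).

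The crofelemer arrays ask whether the drug changes the lung with and without the MDI exposure. Compared with C57BL/6 controls without the drug, the crofelemer controls had lower levels of 27 members and higher levels of none, beside 21.4% of probe sets lower and 17.6% higher (39% in either direction). Among the brighter probe sets 34.5% were lower. The median was -0.89 for the members, 0.03 over all probe sets and -0.15 among the brighter probe sets. These groups lie on the 2 sides of the small gap in array means, and the drug and any difference in processing cannot be told apart. Centring each array on its median moved the median over all probe sets from 0.03 to 0.19 (31% higher, 16.8% lower), and 26 members were then lower and none higher.

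Of the effectors 13 of 14 were lower, and Mx1 (-0.41 ± 0.23) was not called. Isg20 was at 8.51, 9.14, 9.26, 9.12 and 9.83 in the 5 crofelemer controls, all below the 11.42 of the lowest control without the drug. Its level was lower by 5.96-fold (-2.57 ± 0.19, adjusted p = 5.73e-16). Ifit1, which binds the ends of foreign RNA, was at 5.56, 6.61, 5.67, 5.47 and 5.90 against 7.54 to 9.18, a difference of -2.21 ± 0.23 (4.63-fold, adjusted p = 2.01e-11). Trim30a, a gene of the tripartite motif family, was at 7.25, 8.24, 7.79, 7.37 and 8.70 against 9.38 to 10.57, a difference of -2.05 ± 0.25 (adjusted p = 1.81e-09). Neither gene's groups overlapped. Bst2, the tetherin that holds budding virus and also a marker of plasmacytoid dendritic cells, differed by -1.42 ± 0.21.

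Of the interferon gamma targets 3 of 4 were lower, and of the antigen-processing genes 1 of 3. Gbp3 was at 8.99, 8.58, 8.19, 8.07 and 8.62 with crofelemer and at 10.07 to 11.00 without, a difference of -1.83 ± 0.19 (adjusted p = 1.99e-11), and Gbp2 differed by -1.67 ± 0.21 (adjusted p = 9.05e-09). Igtp was lower by a smaller step (-0.79 ± 0.24) and Irgm1 differed by 0.05 ± 0.16, with 10.40 to 10.80 against 10.28 to 10.87. Psmb9 differed by -1.36 ± 0.18 (adjusted p = 2.71e-08), with 7.72 to 8.42 against 8.75 to 9.52, while Tap1, which starts 225 bases away on the other strand, differed by 0.06 ± 0.23 and Psmb8 by 0.17 ± 0.15. Differences between neighbouring genes were not tested.

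Regulators and sensors were lower in part. Irf7 (-1.20 ± 0.36), Stat2 (-0.87 ± 0.18) and Usp18 (-0.82 ± 0.17) passed the test, as did the sensors Ifih1 (-1.31 ± 0.16) and Eif2ak2 (-0.94 ± 0.14). Dhx58 (-0.16 ± 0.17) and Zbp1 (-0.07 ± 0.17) did not. In the OAS family Oas2 (-0.94 ± 0.25) and Oasl2 (-1.13 ± 0.26) were lower and the other 4 were not called. Isg15, Herc6 and Parp14 were lower, and the neighbours Parp9 (0.03 ± 0.16) and Dtx3l (-0.16 ± 0.15) were not called. In 16 members the groups did not overlap, which held downward for 12.7% of probe sets. Within the first submission block (4 arrays against 4) 26 members were lower, and 25 of the 27 were called with any array left out and under every setting that tested them. Of the members with an ISRE core 12 of 16 were lower, and of those without one 9 of 14.

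With MDI in both groups, crofelemer went with lower levels of 16 members and higher levels of none, beside 17.5% of probe sets lower and 15% higher (32.6% in either direction, 29.8% lower among the brighter probe sets). With the replicate number as a block, over 3 arrays a group, 7 were called: Ifit1, Isg20, Bst2, Xaf1, Trim30a, Gbp2 and Gbp3. With arrays centred on their median, 14 were lower and Dhx58 was higher. The median was -0.41. Isg20 differed by -1.73 ± 0.20 (adjusted p = 8.61e-10), Gbp3 by -1.77 ± 0.20 (adjusted p = 3.75e-10) and Trim30a by -1.77 ± 0.26 (adjusted p = 2.74e-07). Psmb9 was again lower (-1.15 ± 0.19), and Tap1 (0.03 ± 0.25), Psmb8 (0.00 ± 0.16) and Irgm1 (0.02 ± 0.17) were again not called. Of the 4 regulators and 6 OAS genes none passed the test, with Irf7 at 0.16 ± 0.38 and Oas2 at 0.28 ± 0.27. In 12 members the groups did not overlap, which held downward for 8.87% of probe sets.

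Other genes of the pathway were lower in both comparisons: 16 and 12 of 22 other type I targets (control and MDI mice), 9 and 8 of 15 other interferon gamma targets and 8 of 10 other class I genes in each. Gbp7 differed by -3.27 ± 0.25 in control mice and -3.09 ± 0.27 in MDI mice, and Sp100, a nuclear body protein, by -2.39 ± 0.14 and -2.07 ± 0.14. Cxcl9 was higher with crofelemer in control mice (1.37 ± 0.32) and not called in MDI mice (-0.19 ± 0.34). Cell type markers differed as well. All 6 B-cell markers were lower in both comparisons, with summed levels of 8.90 to 9.37 in crofelemer controls and 10.82 to 12.19 in controls without it. Natural killer cell markers were lower in 6 of 6 and 5 of 6, endothelial markers in 6 of 6 and 5 of 6, and plasmacytoid dendritic cell markers in 7 of 8 and 3 of 8. Patrolling monocyte markers were lower in 4 of 6 and 3 of 6, and T-cell markers in 2 of 7 and 3 of 7. Eosinophil markers were lower in 3 of 6 (1 higher) and 5 of 6, and alveolar macrophage markers in 3 of 7 in each (1 higher in each). Neutrophil markers were lower in 5 of 10 in control mice, Retnlg at -3.49 ± 0.49, and in MDI mice 1 was lower and 1 higher. Classical monocyte markers were lower in 1 of 4 and 3 of 4, with 1 higher in each. Interstitial macrophage markers were higher in 3 of 5 (1 lower) and 2 of 5, C1qa by 1.78 ± 0.27 and 0.77 ± 0.29. Their part in the members' values was not tested.

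**Figure D4:**
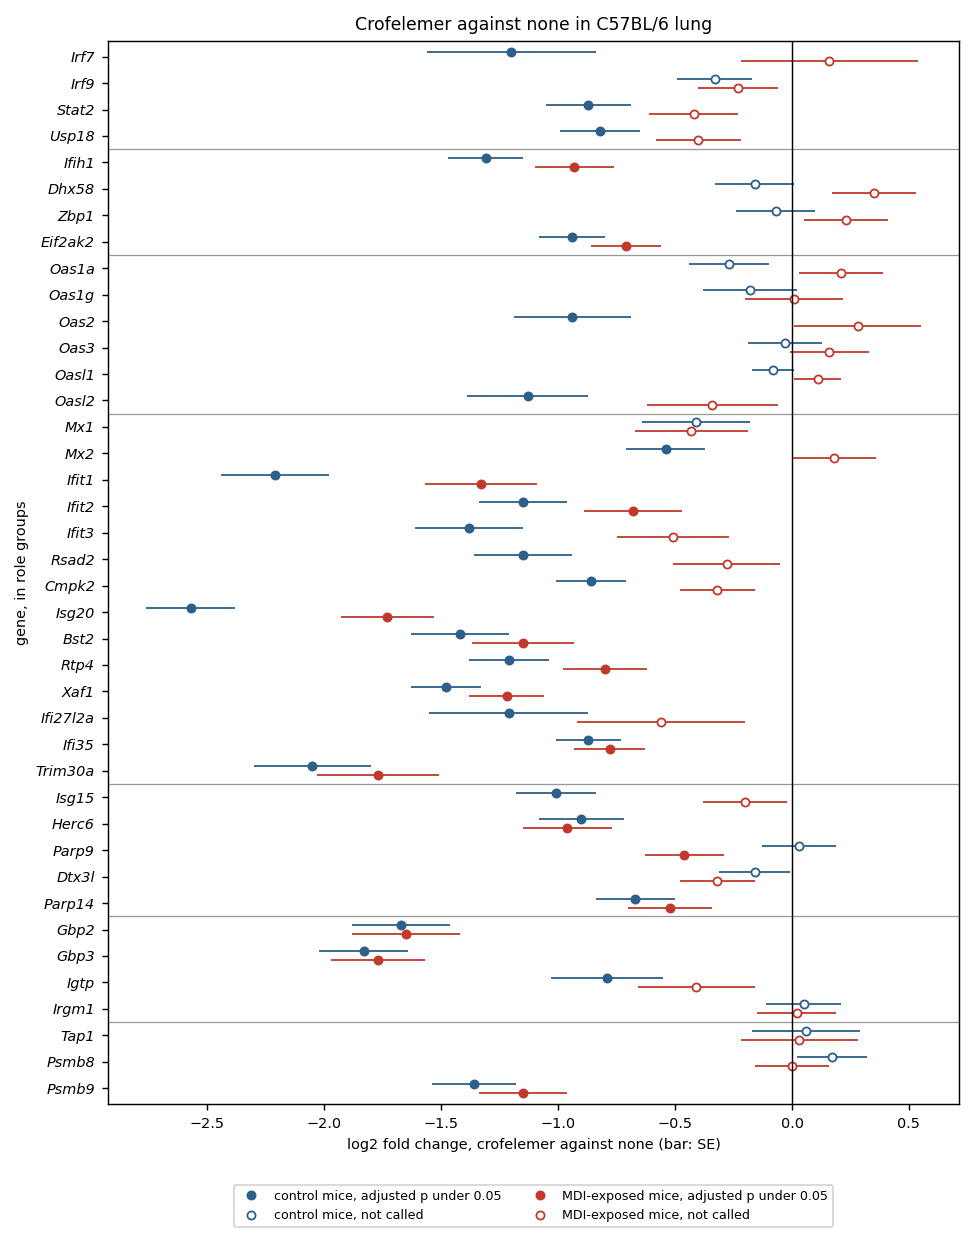
Difference of crofelemer from no crofelemer (log2 fold change, points, with SE as bars) for the 40 members in control C57BL/6 mice (blue) and MDI C57BL/6 mice (red). Filled points passed an adjusted p of 0.05, 27 and 16 members, all lower, with Isg20, Ifit1, Trim30a, Gbp3 and Gbp2 farthest from 0 in control mice.

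Within the crofelemer arrays no member was called for MDI by limma (0.054% of all probe sets, 0.036% higher and 0.018% lower). The median was -0.06, and 3 members had an unadjusted p under 0.05 beside 8.22% of probe sets. Parp9 (-0.63 ± 0.20, adjusted p = 0.273) and Oas1a (0.46 ± 0.20, adjusted p = 0.528) had the smallest p. Irf7 lay at 6.16 to 7.56 in the 5 controls and at 7.11, 6.21 and 6.24 with MDI. The difference between the MDI effects with and without crofelemer was called for no member by limma (0.423% of all probe sets, 0.18% higher and 0.243% lower), with 33 of 40 values above 0, a median of 0.28 and 13 members at an unadjusted p under 0.05 beside 12.1% of probe sets. Oas2 (1.22 ± 0.37, adjusted p = 0.131), Isg15 (0.81 ± 0.25, adjusted p = 0.144) and Isg20 (0.85 ± 0.27, adjusted p = 0.167) had the smallest p. An MDI effect on the members that differs with crofelemer was therefore not shown.

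**Figure D5:**
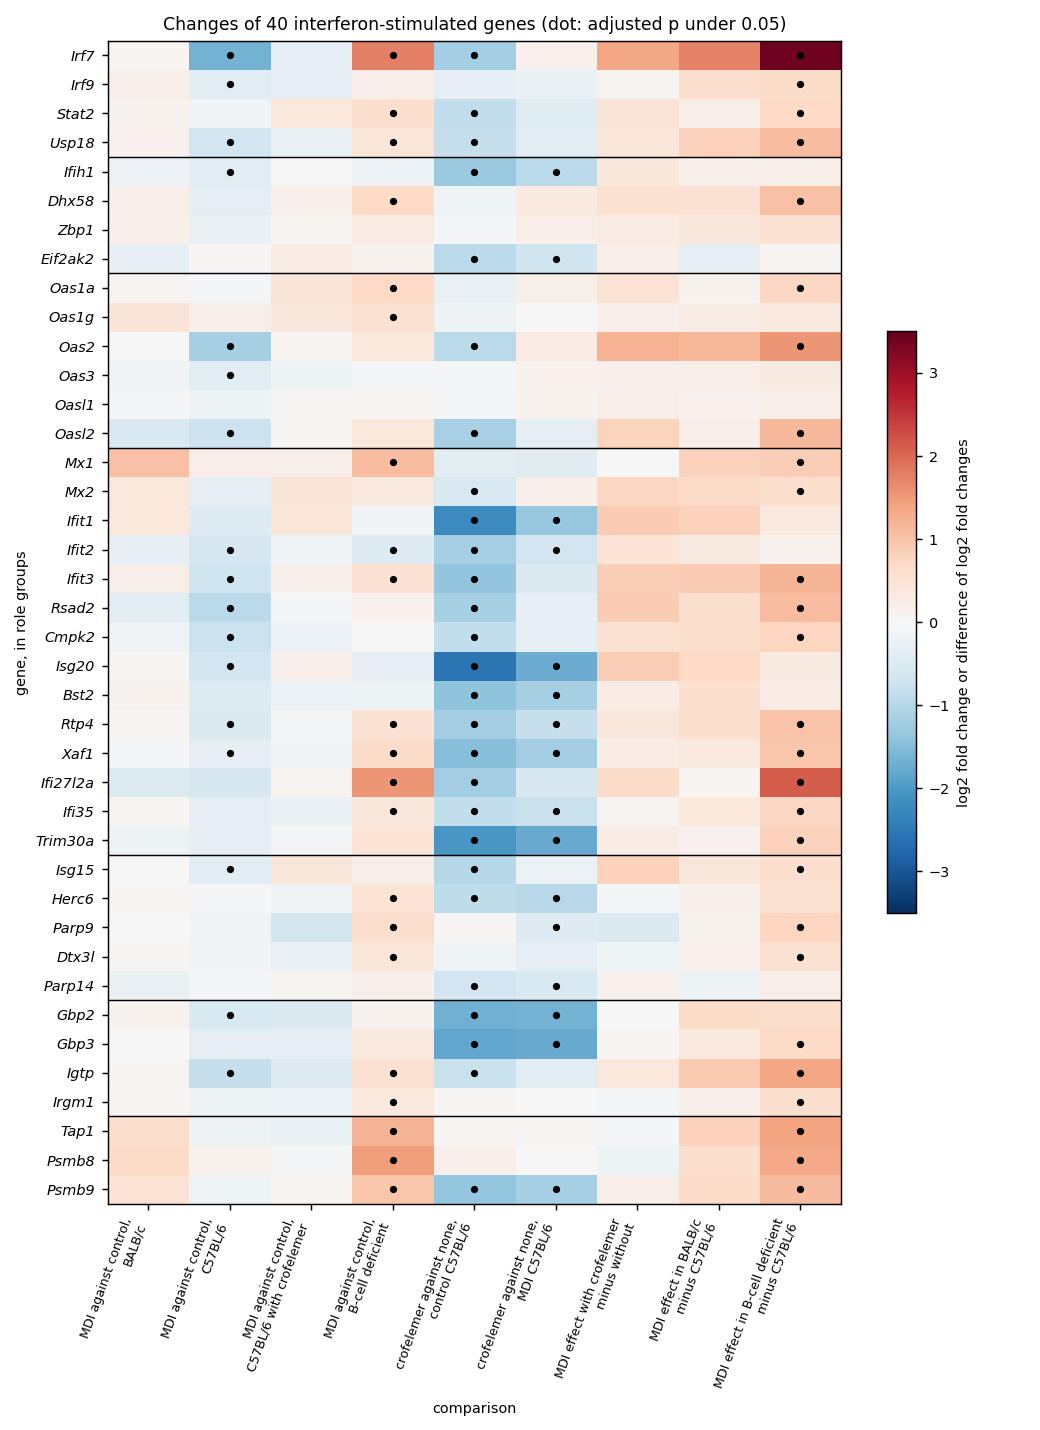
Log2 fold change of the 40 members (one line each, ordered by role) in the 9 comparisons, on a colour scale from -3.5 to 3.5, with a dot where the adjusted p was under 0.05. The 27 dots of the genotype difference are all positive, the 27 and 16 dots of the crofelemer comparisons all negative, and 4 comparisons have no dot.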

How the data were processed

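The authors deposited log2 values for 22206 probe sets on 51 arrays with 2 decimals, written with Transcriptome Analysis Console per the submitters' processing notes. The sources used here give neither its version nor its normalization, and the log base was inferred from the range (1.86 to 20.91). Of the probe sets 19572 carried 1 gene symbol in the platform annotation. The probe set with the highest mean would stand for a symbol with several, but each member had exactly 1.

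The tests used limma 3.58.1 in R 4.3.3, with 8 group means over 49 arrays (41 residual degrees of freedom), an intensity trend, 2-sided tests and Benjamini-Hochberg adjustment over all probe sets, and "called", "rose" and "fell" mean an adjusted p under 0.05. The 9 comparisons share control groups. Blocks of consecutive submissions are not named as batches in the labels. The number of arrays limits the precision.

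The members and lists were chosen with earlier results of these data known. All members could be named, with values for up to 10 members with the smallest p in a comparison and the extremes of each role group, and up to 4 genes of each other list. Ifng, outside this rule, and the type I interferon genes other than Ifnb1 were added after their values were seen. Alternatives were quantile normalization, median centring, a filter on dim probe sets, array weights, no trend, submission block, replicate block, groups alone, no narrow arrays and each array left out.

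Deviations of same-numbered arrays correlated weakly at most. In the 3 pairs of crofelemer and plain MDI arrays r was 0.105 to 0.167. In the 6 pairs of C57BL/6 MDI and control arrays r was -0.222 to 0.184, with 4 pairs over 0.1. Whether replicate numbers mark true pairs was not shown. The contrasts of crofelemer with none were planned as comparisons among arrays normalized together, which the array means do not show. Promoter windows came from RefSeq (GRCm38.p6). Python 3.11.15 with matplotlib 3.10.9 drew the figures.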

Additional observations from a re-analysis of the deposited data

Results flagged for a closer look

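In 11 of 160 tested sets of values (a member in a group of 4 to 10 arrays, 6.88%), the highest or lowest array stood apart from the others by Dixon's test, where chance gives about 1 in 20. Of these, 7 belonged to C57BL/6 control replicate 3, which was highest for Zbp1 (6.35), Oas1g (6.83), Ifit1 (9.18), Cmpk2 (9.61), Xaf1 (11.03), Parp9 (9.56) and Gbp3 (11.0). C57BL/6 control replicate 6 was lowest for Psmb9 (8.75). Crofelemer control replicate 1 was highest for Oas3 (4.85), B-cell deficient control replicate 8 for Oas2 (6.1), and B-cell deficient MDI replicate 1 for Parp14 (9.45).

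The MDI effect differed between B-cell deficient and C57BL/6 mice for 27 members by the interaction term in limma, each more positive in B-cell deficient mice. Differences of 1 or more on the log2 scale were those of Irf7 (3.4), Ifi27l2a (2.11), Oas2 (1.54), Tap1 (1.39), Igtp (1.34), Psmb8 (1.33), Ifit3 (1.2), Oasl2 (1.14), Psmb9 (1.12), Usp18 (1.09), Rsad2 (1.07) and Dhx58 (1.03). The smaller ones were those of Rtp4 (0.99), Xaf1 (0.98), Mx1 (0.87), Trim30a (0.82), Cmpk2 (0.75), Parp9 (0.74), Oas1a (0.73), Ifi35 (0.73), Gbp3 (0.7), Stat2 (0.69), Irf9 (0.63), Mx2 (0.61), Isg15 (0.6), Irgm1 (0.55) and Dtx3l (0.53).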

How the results depend on the processing

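Of 108 calls of a member in a comparison, 85 held with each array left out in turn and 64 also under every other setting, and 0 changed sign. For MDI in C57BL/6 mice, 17 members became 11 with median centring, 11 in a model of these groups alone, 11 within 1 submission block and 10 with the replicate block, and 9 to 20 with 1 array left out (9 without control replicate 3, 20 without control replicate 6). In BALB/c mice 0 became 2 with array weights and 2 in a model of these groups alone. In B-cell deficient mice 21 became 11 without the 4 narrow arrays (19 to 24 with 1 array left out), and the difference from C57BL/6 mice fell from 27 members to 14 (20 to 29). Crofelemer in MDI mice gave 7 in place of 16 with the replicate block, which takes in 6 arrays (14 to 17 with 1 array left out), and in control mice 27 to 28 with 1 array left out. The other comparisons gave 0 with any 1 array left out. The replicate block moved no other count by more than 1.5 times. Submission blocks within BALB/c mice were not run because all 6 arrays share 1 block, and the mean of several probe sets was not run because each member had 1. The limits are the 3 arrays in 3 of the 8 groups, the sets of arrays that may have been normalized apart, and low signals. Of the members, 28 lie among the brighter probe sets and 12 do not. The signals of Oas3 (4.85 at its highest in crofelemer controls) and Isg15 were low. In the arrays placed in no group Oasl1 lay at 2.91 and 3.17, below Oas3 at 4.04 and 4.13. Irf7, Oas2 and Ifi27l2a lay below the array median in every B-cell deficient control. The cause of the shifts in the counts was not tested, except that some settings use fewer arrays.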

Other observations

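The 2 arrays whose labels contradict each other on crofelemer were measured but placed in no group. In the first, 32 of the 40 members lay below all 6 C57BL/6 controls, and in the second 6 of 40 did. The same count over all probe sets was not made, so nothing particular to the members can be read from these counts. Irf7 was at 6.28 and 7.55, Irf9 at 7.96 and 9.01, Stat2 at 9.33 and 10.7, and Usp18 at 8.32 and 8.82.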
